A study of Homo sapiens with 4 samples.

Results

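The compared cells were those whose names ended in suffix 3 or suffix 4 in a count table that joined 4 single-cell libraries of human melanoma cells. The suffix is the mark that keeps cells of joined libraries apart, and the cells carrying 1 suffix are here called a set. Set 3 held 2140 cells and set 4 held 2133, together 4273 of the 8173 cells in the table. The study used droplet-based 3' RNA sequencing, in which each captured molecule carries the barcode of its cell and a random tag counted once (a unique molecular identifier, UMI), with 1 library for each of 4 lines. These were WM239A, an established human melanoma line labelled poorly metastatic, and its sublines 113/6-4L, labelled with a high potential to metastasise to lung, and 131/4-5B1 and 131/4-5B2, both labelled with a high potential to metastasise to brain. All sublines are WM239A subclones per the labels, no treatment was labelled, and no line had a replicate. The sources used here do not say which suffix belongs to which line, and none was assigned from the data. The values therefore compare 2 unlabelled libraries and not conditions, no test was run, and no p-value is given.

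Sets 3 and 4 were matched in size and depth. They held 71444474 and 71182648 UMIs, with medians per cell of 33152.5 and 33390 UMIs, 5190.5 and 5215 detected genes, and 7.12% and 6.83% of UMIs from mitochondrial genes. Only 8 barcodes occurred in both sets, against 5 to 9 for the other pairs of sets. The melanocytic genes were alike: PMEL, the fibrillar protein of melanosomes, stood at 4883 CPM in set 3 and 4496 CPM in set 4, and MITF, the lineage's master regulator, at 267 and 261 CPM, where CPM is UMIs of a gene per 1000000 UMIs of the set. Most defining markers of other cell types were near 0. Fibroblast markers summed to 0.504 and 0.702 CPM over the 5 of 7 listed genes in the table, endothelial markers to 2.98 and 2.35 CPM over 2 of 6, almost all from KDR, and among 5 of 8 immune markers only CD68, a lysosomal protein, was above 1 CPM (38.4 and 37.9 CPM). The keratins KRT18 (101 and 109 CPM) and KRT8 (15.03 and 13.2 CPM) and the myelin protein MBP (192 and 196 CPM) were measured at like levels.

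Several of the gene lists compared below follow processes known from other systems. In the integrated stress response, kinases that sense amino acid shortage, misfolded protein in the endoplasmic reticulum (ER) or other stress slow general translation while letting the transcription factor ATF4 be made. ATF4, with C/EBP partners, switches on genes of amino acid synthesis and import, tRNA charging and stress signalling. A separate arm of the ER stress response, run by XBP1 and ATF6, raises chaperones that fold secreted proteins. Cell cycle genes for DNA replication and mitosis are made mostly in S and in G2 and M, so their level in a set also follows how many of its cells are in those phases.

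Across 6868 genes with a mean of at least 10 CPM over both sets, the ratio of set 3 to set 4 was narrow. On the log2(CPM + 1) scale, which understates ratios of low genes, the ratio had a standard deviation of 0.11 and a median of -0.02, and 97.2% of genes lay within 1.2-fold. For the other 5 pairs of sets the standard deviation ran from 0.29 to 0.50. On this scale only 3 genes (0.0437% of those measured) were at least 2-fold higher in set 3, namely VCX3B, NUPR1 and VCX, and 0 genes (0%) were 2-fold higher in set 4. At 1.2-fold, 106 genes (1.54%) were higher in set 3 and 87 (1.27%) in set 4. With mitochondrial and ribosomal genes left out of the totals, this split was 132 and 64. Past 1.5-fold there were 10 genes higher in set 3 and 2 in set 4. The 2 were PAM, an enzyme that amidates peptides (8.19 and 13.4 CPM, 1.64-fold, 1.48 to 1.82), and KCNN4, a calcium-activated potassium channel (7.94 and 12.5 CPM, 1.57-fold, 1.41 to 1.75), both singled out after their values were seen. In each pair of values the first is that of set 3. Counts of genes past a fold use the log2(CPM + 1) scale, while the folds printed for single genes are plain ratios of CPM, which are slightly wider for low genes. The range after a fold is its exact 95% interval, which covers counting error only. The part of counting error depended on the level. Among 280 genes with a mean of at least 500 CPM it would give a standard deviation of 0.0074 on the log2 scale. There 0.0909 was observed, so counting error made up little of the spread. Among 2171 genes with a mean of 10 to 20 CPM it would give 0.065, and 0.125 was observed. These low genes held 52 of the 106 and 36 of the 87 genes past 1.2-fold. With 1 library per set, differences between lines and between library preparations cannot be told apart.

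**Figure D1:**
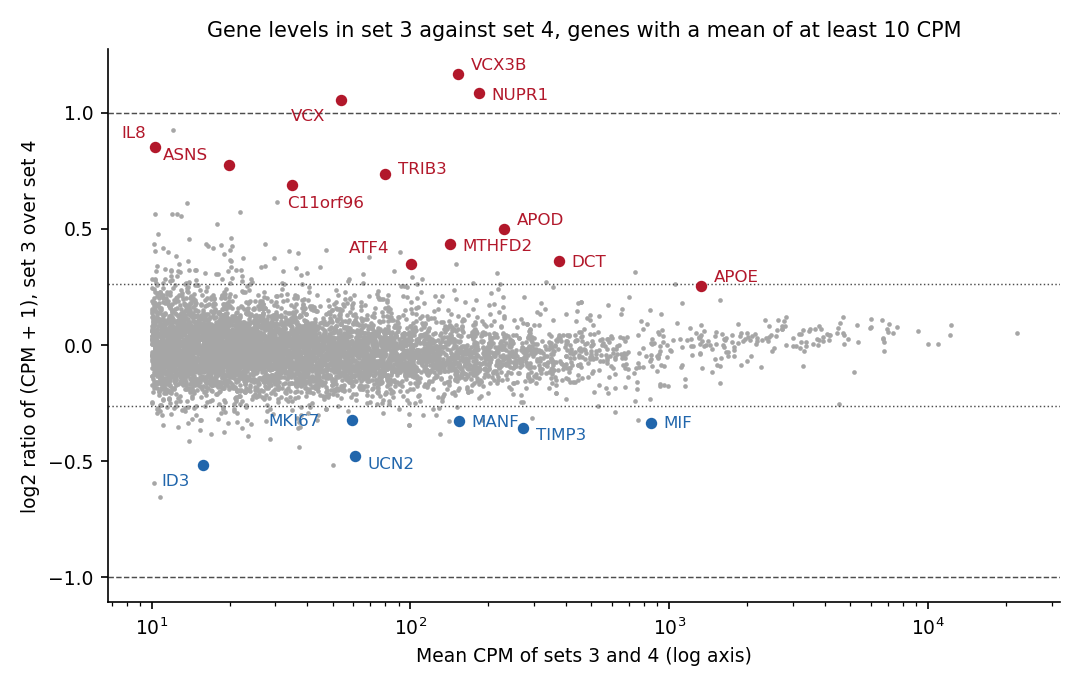
Each point is a gene with a mean of at least 10 CPM, placed by its mean CPM over sets 3 and 4 (log axis) and by its log2 ratio of CPM + 1, set 3 over set 4. Dotted lines mark 1.2-fold and dashed lines 2-fold. Named genes higher in set 3 are red and those higher in set 4 blue. VCX3B, NUPR1 and VCX lie above the 2-fold line and no gene lies below its counterpart.

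VCX3B, a gene of the X-linked VCX family that is normally active in male germ cells, had the largest ratio of any gene measured. It stood at 212 CPM in set 3 and 94.0 CPM in set 4, 2.26-fold higher in set 3 (2.19 to 2.32). Sets 1 and 2 held 7 and 2 UMIs of it in all, so the gene was plainly detected in sets 3 and 4 and hardly at all in the others. Its relative VCX stood at 73.1 and 34.6 CPM (2.11-fold, 2.01 to 2.21), VCX3A had 428 and 279 UMIs (1.53-fold, 1.31 to 1.78), and VCX2 had 14 and 6. Over the last 300 bases of their transcripts, the part that 3' libraries read, VCX3B was 93.1% identical to both VCX and VCX3A, and VCX was 98% identical to VCX3A. Reads of these copies may have been split or dropped in counting, so the level of each copy is uncertain.

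The sets differed in how many cells had VCX3B and, after thinning by less, in the level within such cells. At the deposited depth, 86.0% of cells in set 3 and 54.9% in set 4 had at least 1 UMI of it. With every cell thinned to 10000 UMIs, which removes depth differences, the shares were 71.8% (69.9% to 73.7%) and 38.2% (36.2% to 40.3%). Thinned cells with the gene had a mean of 2.87 UMIs in set 3 and 2.44 in set 4. At the deposited depth the level within such cells was 243 and 165 CPM, a smaller ratio than over all cells. Cells without any VCX3B were commoner than counting gives for an even level: 14.02% of cells were at 0 in set 3 where a Poisson count with the set's mean would leave 0.730%, and 45.1% in set 4 where it would leave 7.26%. Such an excess was not particular to VCX3B. For NUPR1, 3.08% and 8.49% of cells were at 0 where 0.394% and 4.33% would be left. For APOD these were 5.65% and 8.72% where 0.281% and 1.03% would be left. Cells at 0 for VCX3B were a little shallower, with medians of 29270 and 31298 UMIs against 33647.5 and 34780 in cells with the gene. The family members occurred together. VCX stood at 82.7 CPM in set 3 cells with VCX3B and 6.67 CPM in those without, and at 58.7 and 2.65 CPM in set 4. Of cells with VCX, 96.7% and 91.8% also had VCX3B. Near-identical copies can share reads, which bears on this joint occurrence and was not tested. No cell type lacking these genes was present within the sets to measure UMIs from free RNA. In sets 1 and 2 VCX3B stood at 0.0977 and 0.0278 CPM.

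**Figure D2:**
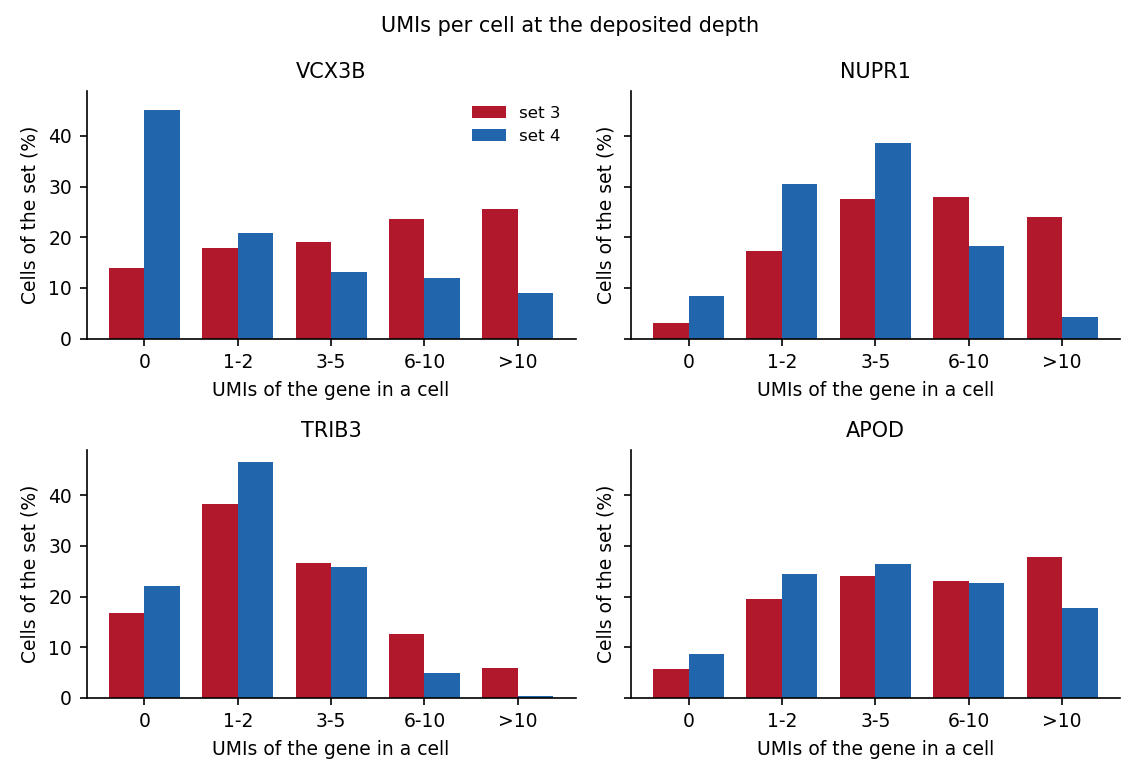
Bars give the percentage of cells of set 3 (red) and set 4 (blue) by the number of UMIs of a gene in the cell, for VCX3B, NUPR1, TRIB3 and APOD at the deposited depth. For VCX3B the largest class in set 4 is 0 UMIs (45.1% of cells), and in set 3 it is over 10 UMIs (25.5%). For NUPR1 the share of cells with over 10 UMIs is 24.1% in set 3 and 4.22% in set 4.

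Other testis genes were close in both sets. None of the 8 measured MAGE, PAGE and other testis antigens was past 1.2-fold, and their median log2 ratio was -0.03, near the median of all genes. PRAME, a testis antigen common in melanoma, stood at 144 and 136 CPM, and MAGEA3 at 80.3 and 84.8 CPM. Nor did VCX3B go with the stress gene NUPR1: across cells of a set its UMIs had a Pearson correlation of -0.01 with NUPR1 in set 3 and 0.01 in set 4 (2139 and 2132 thinned cells). In cells with and without VCX3B, NUPR1 stood at 247 and 268 CPM in set 3, and at 112 and 123 CPM in set 4.

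NUPR1, a small chromatin-associated protein induced by cellular stress, stood at 249 CPM in set 3 and 117 CPM in set 4, 2.13-fold higher in set 3 (2.07 to 2.18). In sets 1 and 2 it stood at 56.9 and 8.20 CPM. At the deposited depth most cells of both sets had it, 96.9% and 91.5%, where VCX3B was in 86.0% and 54.9%. After thinning the shares for NUPR1 were 80.6% (78.9% to 82.3%) and 64.3% (62.2% to 66.3%), and those for VCX3B 71.8% and 38.2%. Its higher level in set 3 was spread over the cells, with a median of 6 and 4 UMIs in cells with the gene. Leaving out the 5% of cells of each set richest in NUPR1 gave a log2 ratio of 1.01 in place of 1.08. The ratio was above 0 in every cell cycle phase, at 1.24 in G1, 0.94 in S and 1.04 in G2M.

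Other regulators of the integrated stress response were higher in set 3 with it. Of 11 measured factors and regulators, 7 were at least 1.2-fold higher in set 3 and 0 in set 4. Over all measured genes these shares were 1.54% and 1.27%. The 7 include NUPR1, a marker of this comparison. The median log2 ratio of the list was 0.35 against -0.02 over all genes. ATF4 itself stood at 113 and 88.2 CPM (1.28-fold, 1.24 to 1.32). TRIB3, a pseudokinase that restrains ATF4 and AKT signalling, stood at 100.4 and 59.8 CPM (1.68-fold, 1.62 to 1.75). DDIT4, which represses the growth kinase mTORC1, stood at 37.0 and 23.8 CPM (1.55-fold, 1.46 to 1.65). The dimer partner CEBPG stood at 26.4 and 17.4 CPM, its relative CEBPB at 111 and 90.7 CPM, and DDIT3, the pro-apoptotic factor CHOP, at 78.4 and 60.01 CPM. The remaining members were closer. PPP1R15A, which restores translation, stood at 62.6 and 57.2 CPM, and ATF5 at 9.95 and 10.3 CPM. Neither of the stress-sensing kinases on the list was higher in set 3: EIF2AK4 (GCN2), the sensor of uncharged tRNA, stood at 31.8 and 32.2 CPM, and EIF2AK3 (PERK), the ER sensor, at 2.90 and 3.16 CPM. RNA levels do not measure the activity of these kinases.

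Genes of amino acid synthesis and uptake that ATF4 drives were mostly higher in set 3 by smaller folds. Of 15 measured, 14 had a ratio above 0, 5 were at least 1.2-fold higher in set 3 and 0 in set 4, with a median log2 ratio of 0.20. Among all measured genes, 39.7% had a ratio above 0 and 1.54% reached that fold in set 3. ASNS, asparagine synthetase, stood at 25.5 and 14.4 CPM (1.76-fold, 1.63 to 1.91). CBS, which commits homocysteine to cysteine synthesis, stood at 15.2 and 9.95 CPM, MTHFD2, a mitochondrial folate enzyme, at 164 and 121 CPM, and the serine synthesis enzymes PSAT1 and PHGDH at 104 and 78.3 CPM and at 191 and 158 CPM. Importers with a mean of at least 10 CPM differed less than ASNS. SLC7A5, the large neutral amino acid exchanger, stood at 99.9 and 90.02 CPM, and SLC38A2, a glutamine and alanine carrier, at 18.2 and 15.6 CPM. ALDH18A1, the enzyme that starts proline synthesis, was the exception below 0, at 11.2 and 11.8 CPM.

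ATF4 and C/EBP dimers recognise a composite element whose core is commonly written TGATGNAA, and ASNS carries a well-studied copy. The core was searched on both strands in the 250 bases before each gene's start in a RefSeq promoter table (GRCh38.p14), where the letters alone were matched. It occurred in 2 of the 31 measured genes of the 3 ATF4 lists that had a promoter entry (6.45%), in 1.18% of the promoters of 5690 genes with at least 10 CPM and in 3.19% of all 27305. Both matches are shown 5′ to 3′ on the gene's strand with the core in capitals, because ASNS had the largest ratio among amino acid genes with a mean of at least 10 CPM and HERPUD1 a small one.
ASNS promoter, chr7:97872449-97872496, minus strand: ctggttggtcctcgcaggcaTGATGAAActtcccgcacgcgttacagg
HERPUD1 promoter, chr16:56931946-56931993, plus strand: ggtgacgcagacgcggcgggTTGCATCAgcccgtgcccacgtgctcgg
In ASNS the core lies 61 to 68 bases before the start. In HERPUD1 it is read on the opposite strand, 169 to 176 bases before the start. The matches differ at the N base. HERPUD1, a factor of ER-associated degradation that ATF6 also controls, stood at 117 and 110 CPM. Its log2 ratio was 0.09 where that of ASNS was 0.78. A match describes these letters and not a bound site. Genes without a match may still carry the element, since only this core in the 250 bases before the start was searched. NUPR1 had no promoter entry and was not searched.

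Among other targets of ATF4, 5 of 10 measured were at least 1.2-fold higher in set 3 and 0 in set 4, with a median log2 ratio of 0.25. The share of all measured genes at that fold in set 3 was 1.54%. BBC3, the apoptosis inducer PUMA and also a p53 target, stood at 16.8 and 10.6 CPM (1.58-fold, 1.44 to 1.73), with a log2 ratio of 0.61 in all cells and 0.21 in G1 cells. CARS, the cysteinyl-tRNA synthetase, stood at 23.7 and 17.0 CPM, KLHL24, a ubiquitin ligase adaptor, at 14.2 and 10.6 CPM, XPOT, which exports tRNA from the nucleus, at 35.8 and 28.5 CPM, and VLDLR, a lipoprotein receptor, at 13.2 and 10.4 CPM. GDF15, a secreted stress cytokine, was the most abundant at 487 and 428 CPM (1.14-fold). SQSTM1, an autophagy receptor, stood at 399 and 398 CPM and TXNIP at 15.3 and 16.4 CPM. Among the 20 tRNA synthetases of the cytosol, 16 had a ratio above 0, where 39.7% of all measured genes did. At least 1.2-fold higher in set 3 were 3 of them (CARS, WARS and SARS), and the list median was 0.09. WARS stood at 72.5 and 58.6 CPM and SARS at 122 and 100.2 CPM.

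Several ATF4 targets were too low for the 10 CPM minimum. Of the 15 listed members below it, 13 had a ratio above 0. The share above 0 among all genes below the minimum was not counted, so there is no background for this count. SLC7A11, the cystine importer of the glutathione pathway, had 533 UMIs in set 3 and 167 in set 4, or 7.46 and 2.35 CPM (3.18-fold, 2.67 to 3.81). It was seen in 7.2% (6.14% to 8.38%) and 2.16% (1.58% to 2.87%) of thinned cells, and without thinning in 17.8% and 7.03%. The following 4 were chosen after their values were seen. CHAC1, which degrades glutathione, had 234 and 20 UMIs (11.7-fold, 7.38 to 19.4), in 176 and 18 cells. ADM2, a secreted peptide, had 93 and 12 UMIs (7.72-fold, 4.22 to 15.5), SESN2, an inhibitor of mTORC1 in leucine shortage, 390 and 160 (2.43-fold, 2.02 to 2.94), and ATF3, a stress-induced repressor, 172 and 61 (2.81-fold, 2.09 to 3.83). The ratios of SLC7A11 and these 4 were wider than those of the abundant members, and they rest on few UMIs per cell. Not all low genes were so wide. CTH had 537 and 327 UMIs (1.64-fold, 1.42 to 1.88), and GPT2 had 467 and 421 (1.11-fold, 0.967 to 1.26). GADD45B, at 228 and 242 UMIs, was not higher in set 3.

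The programme, taken as the 36 measured genes of the 3 ATF4 lists, had 17 genes at least 1.2-fold higher in set 3 and 0 in set 4. These 17 are 47.2% of the programme and 16.04% of the 106 genes at that fold, where 1.54% of all measured genes reached it. The lists were drawn up with earlier results of these data known, so the count is a description. In cells thinned to 10000 UMIs, the programme took a median of 29 UMIs in set 3 and 25 in set 4, and the gap widened upwards: the 90th percentile was 48 and 36 UMIs and the 99th 76.6 and 49. The lower end was closer, with a 10th percentile of 19.8 and 18 UMIs. The sum includes NUPR1, a marker of this comparison. Without it the medians were 27 and 24 UMIs, the 90th percentiles 43 and 34, and the 99th 67 and 47. Across cells, NUPR1 went with the sum of the other 35 genes with a Pearson correlation of 0.44 and a Spearman correlation of 0.32 over 2139 thinned cells of set 3. Over 2132 thinned cells of set 4 these were 0.18 and 0.03, so there the ranks were hardly associated. The median log2 ratio of the stress response factors was 0.46 in G1, 0.37 in S and 0.30 in G2M, and that of the amino acid genes 0.30, 0.18 and 0.19.

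**Figure D3:**
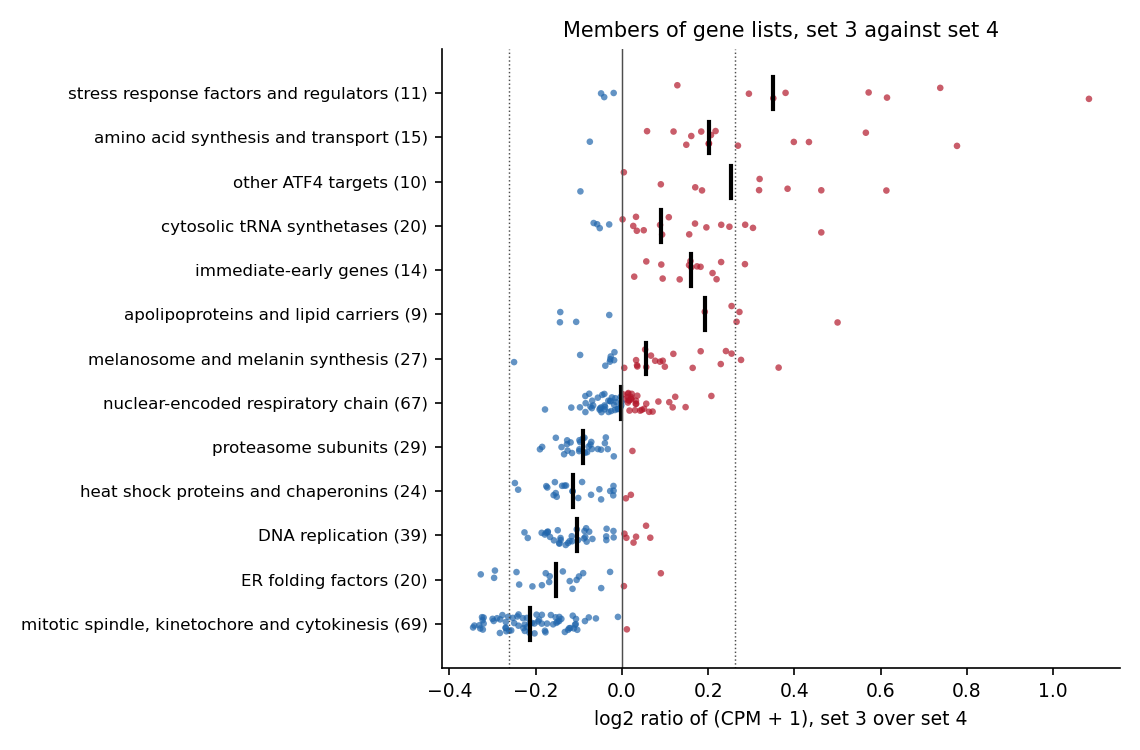
Each point is a measured member of a gene list, placed by its log2 ratio of CPM + 1, set 3 over set 4 (red above 0, blue below), and black bars are list medians. Numbers in brackets give the measured members and dotted lines mark 1.2-fold. Medians run from 0.35 for stress response factors and regulators to -0.21 for mitosis.

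The folding machinery of the ER was on the other side. Of 20 measured ER folding and quality control genes, 18 had a ratio below 0, and 3 were at least 1.2-fold higher in set 4 and 0 in set 3, where 1.27% of all measured genes were higher in set 4 at that fold. The median log2 ratio was -0.15, and 39.7% of all measured genes had a ratio above 0. HSPA5 (BiP), the central chaperone of the ER, stood at 70.1 and 86.2 CPM (1.23-fold higher in set 4, 1.19 to 1.28). MANF, a secreted ER stress protein, stood at 137 and 172 CPM (1.26-fold, 1.22 to 1.29), and PDIA4, a disulfide isomerase, at 88.7 and 109 CPM. HSP90B1 (339 and 392 CPM), SDF2L1 (249.6 and 296 CPM) and CRELD2 (89.1 and 105 CPM) were lower in set 3 by less. The transcription factors were closer, with XBP1 at 118 and 126 CPM and ATF6 at 11.9 and 11.8 CPM. Within phases the list median was -0.09 in G1, -0.16 in S and -0.15 in G2M. Across cells, the summed ER folding genes and the ATF4 programme were only weakly correlated, at 0.12 in set 3 and 0.18 in set 4, and both sums include HERPUD1.

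Chaperones of the cytosol and the proteasome leaned the same way by small amounts, with no member past 1.2-fold. Of 24 heat shock proteins and chaperonins, 22 were below 0 with a median of -0.11, as for HSPB1 (677 and 799.9 CPM) and HSP90AA1 (926 and 1046 CPM). Of 29 proteasome subunits, 28 were below 0 with a median of -0.09, as for PSMD6 (92.6 and 106 CPM). Over all genes 39.7% had a ratio above 0. Nuclear-encoded respiratory chain genes stood at the centre, with 67 measured, none past 1.2-fold and a median of 0.00, and glycolysis genes likewise, with 19 measured and a median of 0.00. The 38 measured lysosome and V-ATPase genes also had a median of 0.00, with CTSK, a collagen-degrading protease, past 1.2-fold at 40.4 and 31.9 CPM. Antioxidant genes of the glutathione and thioredoxin systems (25 measured) had a median of -0.04, with only MGST1, a glutathione transferase, 1.2-fold higher in set 4 (125 and 157 CPM). The 17 measured genes of the hypoxia response had a median of -0.03, with HIF1A, the oxygen-responsive factor, at 33.9 and 42.0 CPM and DDIT4, given above, past 1.2-fold the other way, and the 12 mitochondrially encoded genes one of 0.04. Of 10 nuclear noncoding and snoRNA host RNAs 8 were above 0, with a median of 0.08, and 3 metallothionein genes and their sensor MTF1 had a median of -0.04, with MT1E past 1.2-fold at 11.4 and 9.22 CPM.

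Among the lists, mitosis had the most genes higher in set 4. Of 69 measured genes of the mitotic spindle, kinetochore and cytokinesis, 68 had a ratio below 0, with a median of -0.21. At least 1.2-fold higher in set 4 were 20 (28.99% of the list and 22.99% of the 87 genes at that fold), with 0 in set 3. Of all measured genes 1.27% reached that fold in set 4, and 39.7% had a ratio above 0. MKI67, a proliferation marker that coats mitotic chromosomes, stood at 52.5 and 65.9 CPM (1.25-fold higher in set 4, 1.201 to 1.309). CCNB1, the cyclin that drives mitotic entry, stood at 86.9 and 111 CPM, CDC20, an activator of the anaphase-promoting complex, at 86.9 and 110.5 CPM, and TOP2A, the topoisomerase that untangles chromosomes, at 98.2 and 110.2 CPM. With equal phase shares in both sets the log2 ratio of TOP2A turned from -0.16 to 0.07. Of 39 DNA replication genes 33 were below 0, with none past 1.2-fold and a median of -0.10. CDC6, a licensing factor, stood at 49.8 and 58.4 CPM and CLSPN, a checkpoint adaptor, at 65.4 and 76.2 CPM. The 3 measured replication-dependent histones had a median of -0.17, led by HIST1H4C (1081 and 1221 CPM). Histone transcripts without a poly(A) tail are poorly captured by this kit.

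The sets also differed in how many cells were called cycling. Phases were called from S and G2M gene scores in thinned cells. G1 took 29.5% of set 3 (27.6% to 31.5%) and 20.8% of set 4 (19.1% to 22.6%), S took 47.0% and 49.7%, and G2M 23.4% (21.6% to 25.3%) and 29.5% (27.6% to 31.5%). S and G2M together came to 70.5% (68.5% to 72.4%) and 79.2% (77.4% to 80.9%), and to 70.2% and 80.5% when called at the deposited depth. The calls are not independent of the mitotic genes, since 38 of the 69 enter the scores. The other 31 had 30 members below 0 and a median of -0.20. Within S and within G2M cells the mitotic list had medians of -0.04 and -0.02, and with both sets weighted to equal phase shares it was -0.02, at which weighting 46 genes in place of 87 were 1.2-fold higher in set 4. Within G1 cells the median was -0.22. In those cells CCNB2 had a log2 ratio of -0.67 and CCNB1 of -0.61, while MKI67 had -0.07. MKI67 was seen in 31.6% (29.6% to 33.6%) of thinned cells in set 3 and 37.1% (35.1% to 39.2%) in set 4, and without thinning in 53.04% and 61.8%. Phase calls do not measure how fast cells divide.

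**Figure D4:**
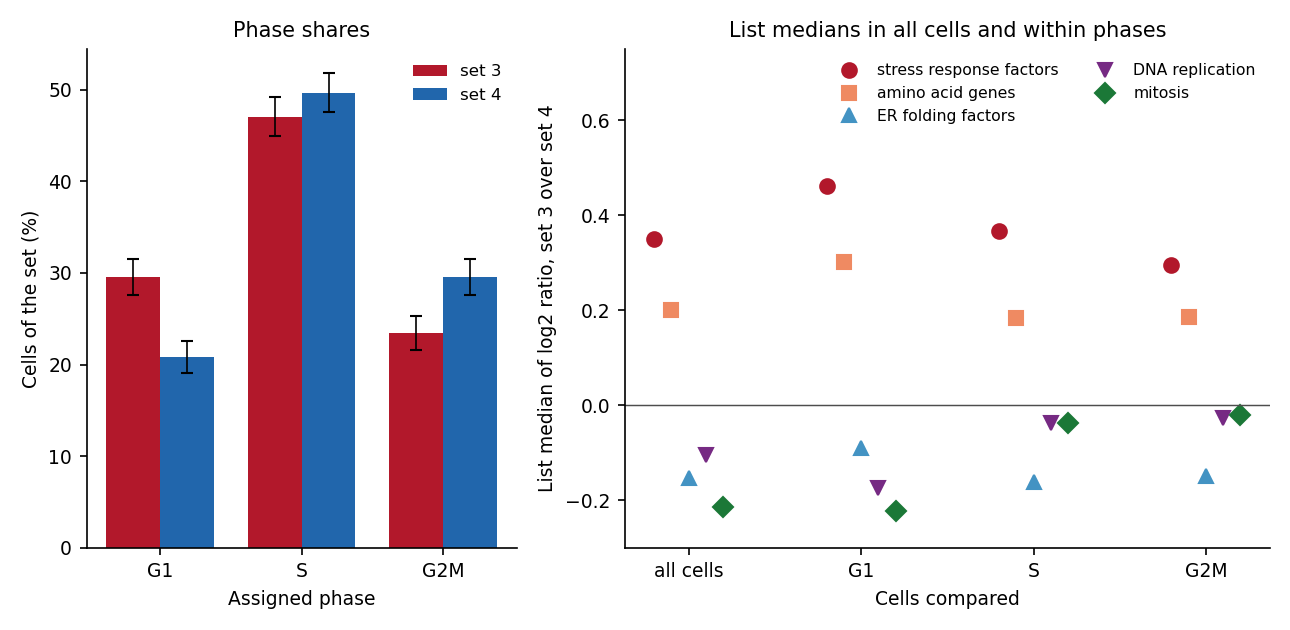
Left, percentage of thinned cells of set 3 (red) and set 4 (blue) called G1, S or G2M, with exact binomial 95% intervals as bars. Right, median log2 ratio of set 3 over set 4 for 5 gene lists in all cells and within each phase, with markers offset sideways for legibility. The mitosis median is -0.21 in all cells, -0.22 in G1 and near 0 within S and G2M, while the stress response median stays between 0.30 and 0.46.

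Some lipid carriers were higher in set 3. APOD, a lipocalin that binds arachidonic acid and sterols, stood at 270.4 and 191 CPM (1.42-fold, 1.39 to 1.45). It was present in 94.3% and 91.3% of cells at the deposited depth and in 75.1% (73.2% to 76.9%) and 69.8% (67.8% to 71.7%) after thinning, so the sets differed more in level than in the share of cells. Cells with over 10 UMIs of APOD made up 27.8% of set 3 and 17.8% of set 4. Of 9 measured genes on the list, 5 had a ratio above 0 and 4 below, with a median of 0.19. At least 1.2-fold higher in set 3 were 3 of them, the marker APOD included, with 0 in set 4. That fold was reached in set 3 by 1.54% of all measured genes, and 39.7% had a ratio above 0. APOC1 stood at 367 and 303 CPM, APOC2 at 71.5 and 59.3 CPM and APOE, the main lipoprotein ligand made by melanocytic cells, at 1444 and 1210 CPM (1.19-fold, 1.182 to 1.204). FABP7, a fatty acid carrier of neural crest cells, stood at 192 and 168 CPM. Across cells, APOE, APOC1, APOC2 and APOD summed had correlations of -0.02 and 0.02 with the ATF4 programme. Genes of cholesterol synthesis (22 measured, median -0.05) and fatty acid synthesis (13 measured, median 0.03) had no member past 1.2-fold.

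Pigment genes leaned to set 3 in a few members. Of 27 measured melanosome and melanin genes, 19 had a ratio above 0 and 2 were at least 1.2-fold higher in set 3, with a median of 0.06. For all measured genes the shares were 39.7% above 0 and 1.54% at that fold. DCT, the dopachrome tautomerase of melanin synthesis, stood at 421 and 327 CPM (1.29-fold, 1.27 to 1.31), and GPR143, a melanosome receptor, at 63.0 and 51.8 CPM. MC1R, the melanocortin receptor, ran the other way at 38.02 and 45.4 CPM. Their regulators were close. Of 9 melanocytic transcription factors none was past 1.2-fold, with SOX10 at 61.5 and 65.4 CPM and TFAP2A, the furthest of them, at 59.7 and 51.9 CPM.

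Immediate-early genes, which answer growth signals and cell handling within minutes, were all above 0, where 39.7% of all genes were. The 14 measured had a median of 0.16, but only FOSB (12.5 and 10.1 CPM) was past 1.2-fold, with a log2 ratio of 0.04 in G1 and 0.63 in G2M, and FOS stood at 79.9 and 68.5 CPM and JUNB at 60.4 and 51.4 CPM. MAPK output genes (16 measured, median 0.03) included EGR1 at 70.6 and 62.5 CPM, and FOSL1, an AP-1 subunit, went the other way at 17.0 and 20.7 CPM. Among p53 targets (17 measured, median 0.09) only BBC3 was past 1.2-fold. CDKN1A, the p21 inhibitor, stood at 56.6 and 48.6 CPM, but its log2 ratio of 0.22 became -0.05 without the 5% of cells richest in it.

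Genes ranked high in set 4 by the naming rule also included UCN2, urocortin 2, which stood at 50.7 and 71.1 CPM (1.40-fold, 1.34 to 1.46). TGFBI, a matrix protein induced by TGF-beta, stood at 31.2 and 42.7 CPM (1.37-fold, 1.29 to 1.45), TIMP3, a matrix-bound protease inhibitor, at 239 and 306 CPM (1.28-fold, 1.26 to 1.31), and COL9A3, a collagen IX chain, at 19.4 and 25.2 CPM. MIF, a cytokine with tautomerase activity, stood at 753 and 951 CPM (1.26-fold, 1.25 to 1.28). TNFRSF12A, the receptor of TWEAK, stood at 100.1 and 124 CPM, with a log2 ratio of -0.30 in all cells and -0.09 in G1 cells. The list of the undifferentiated and invasive state was split. Of its 14 measured genes, 3 were 1.2-fold higher in set 4 and 0 in set 3, where 1.27% and 1.54% of all measured genes were. FN1 (fibronectin) and PLAT (tissue plasminogen activator) were higher in set 3 at 243 and 211 CPM and at 26.3 and 21.8 CPM. ID3, an inhibitor of differentiation induced by BMP signals, stood at 12.8 and 18.8 CPM (1.47-fold, 1.35 to 1.60). Its relative ID2 stood at 24.8 and 24.9 CPM, and the other 3 measured genes of the BMP and TGF-beta feedback list were within 1.2-fold, with a list median of -0.01. S100A16, a calcium-binding protein, stood at 14.6 and 19.3 CPM, while the 6 measured S100 genes had a median of -0.06. NME1-NME2 (41.0 and 59.1 CPM) and CBWD5 (20.3 and 27.0 CPM) share sequence with neighbouring or duplicated genes, so their counts are uncertain.

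Immune genes moved in different directions. HLA-B, a class I chain that presents peptides to CD8 T cells, stood at 168 and 131 CPM (1.28-fold, 1.24 to 1.31), while PSMB10, a subunit of the immunoproteasome, stood at 24.98 and 30.6 CPM. The 13 measured class I genes had a median of -0.03. Class II genes were all under the minimum. CD74, the class II chaperone, had 485 and 844 UMIs (1.75-fold higher in set 4, 1.56 to 1.96), and HLA-DRA had 40 and 118 (2.96-fold, 2.05 to 4.35), in 30 and 69 cells. Interferon-stimulated genes were split, with ISG15 (18.8 and 23.9 CPM) and ISG20 (21.3 and 27.1 CPM; log2 ratio -0.08 in G1 cells) higher in set 4 and BST2 (172 and 151 CPM) higher in set 3, and 9 measured with a median of -0.01.

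For a few genes the ratio of the sums rested on very few cells. IL8, a neutrophil chemokine, stood at 13.6 and 7.07 CPM (1.92-fold, 1.72 to 2.14), but 412 of its 970 UMIs in set 3 lay in 10 cells, against 64 of 503 in set 4. Without the 5% of cells richest in IL8 its log2 ratio was 0.31 in place of 0.85, and it was seen in 17.7% and 15.5% of cells. C11orf96 stood at 43.1 and 26.3 CPM (1.64-fold), with 967 of 3080 UMIs in 10 cells of set 3 and 102 of 1874 in set 4. Its log2 ratio was 1.35 in G1 cells, 0.24 in S and 0.25 in G2M, and 0.25 without the richest 5%. In contrast, TRIB3 kept 0.65 of 0.74 and ASNS 0.75 of 0.78 without their richest cells. FBLN1, an extracellular matrix protein, was also spread, with 1152 and 571 UMIs (2.01-fold, 1.82 to 2.23) in 36.5% and 21.3% of cells. Its log2 ratio on the CPM + 1 scale was 0.92, short of 2-fold. FBLN1 was singled out after its values were seen. Other genes ranked high in set 3 by the naming rule included IGFBP3, a binding protein of insulin-like growth factors (31.6 and 23.1 CPM), the kinase STK32A (23.6 and 17.3 CPM), RCAN1, an inhibitor of calcineurin (54.0 and 40.4 CPM), and NELL1 (23.1 and 17.2 CPM).

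Genes of chromosome 7 were together lower in set 3. RefSeq (GRCh38.p14) placed 6723 of the 6868 measured genes on a chromosome by symbol. The 347 on chromosome 7 had a median log2 ratio of -0.08, and 21.0% of them were above 0, where all genes had -0.02 and 39.7%. This was a shift of many genes by little, since only 9 were at least 1.2-fold higher in set 4 and 6 in set 3. Chromosome 18, with 101 genes, had a median of -0.06, and chromosomes 8 and 19 were the only autosomes above 0, both with a median of 0.02 (58.0% and 57.8% of genes above 0). Shares per cell were taken of the UMIs of the measured genes placed on a chromosome, in thinned cells. In the median cell, genes of chromosome 7 took 4.72% of these UMIs in set 3 and 4.97% in set 4. The 10th to 90th percentiles were 3.82% to 5.47% and 4.11% to 5.68%, so the cells of both sets overlapped widely. Within phases the chromosome 7 median was -0.05 in G1, -0.08 in S and -0.06 in G2M, each below the median of all genes there (-0.01, -0.02 and -0.01). DNA copy number was not measured.

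**Figure D5:**
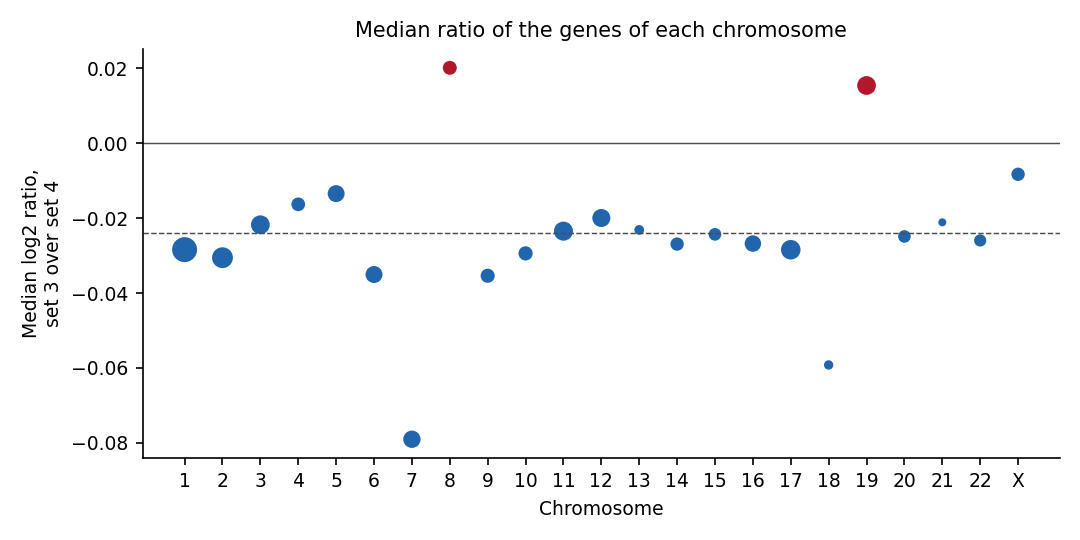
Median log2 ratio of CPM + 1, set 3 over set 4, of the measured genes on each chromosome. Dot area is proportional to the number of genes, red is above 0 and blue below, and the dashed line is the median of all genes (-0.02). Chromosome 7 is lowest at -0.08, and chromosomes 8 and 19 are highest at 0.02.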

How the data were processed

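The authors deposited UMI counts per gene and cell for 4 joined libraries and a second table with natural log values, which was not used. Cell Ranger 3.0.0 and Seurat 3.0 with the builds hg19 and mm10 were used, per the submitters' processing notes; no filter on cells is stated in these sources, and all cells had 3001 to 6999 detected genes. The highest mitochondrial share of any cell was 19.9%. Doublets were not called here, so any among the deposited cells stayed in, and free RNA was not removed. Whether doublets had been removed earlier is not stated in these sources. Counts were summed per set and scaled to CPM, and compared as log2(CPM + 1) over genes with a mean of at least 10 CPM. Ratios carry exact 95% intervals from a binomial split of both counts, shares exact Clopper-Pearson ones. Phases came from scanpy 1.11.5 in cells thinned to 10000 UMIs, which left out 1 cell per set; figures used matplotlib 3.10.9.

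The compared sets, the 41 gene lists and the markers were chosen with earlier results of these data known. Genes named are the markers VCX3B, NUPR1, SLC7A11, APOD and MKI67, the 15 largest ratios each way with a mean of at least 20 CPM (mitochondrial, ribosomal protein and clone-named genes left out), from each list up to 5 members with the largest ratios, further list members chosen for contrast after their values were seen, and always MITF, SOX10, PMEL, ATF4, DDIT3 and TOP2A. Alternatives were another pseudocount, minimum, scaling (edgeR's TMM), thinning, weighting by cell or phase, G1 cells alone, a mitochondrial limit of 10% and leaving out the 5% of cells richest in a gene.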

Additional observations from a re-analysis of the deposited data

How the results depend on the processing

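No paired analysis was possible because the lines were sequenced as 1 library each and the labels carry no replicate numbers. No result reversed by the measures used here, in which a gene within 1.2-fold or a list median within 0.1 of 0 has no direction to reverse. At 1.2-fold, 106 and 87 genes were higher in sets 3 and 4. These counts were 48 and 28 with 10 CPM as the pseudocount, which draws low genes towards 0, 24 and 23 with a minimum of 50 CPM, where fewer genes are counted, 518 and 271 with no minimum, 176 and 180 in thinned cells and 225 and 203 over G1 cells; the cause was not tested. With equal phase shares 46 genes were higher in set 4. At 2-fold there were 5 and 1 genes with no minimum and 7 for set 3 in G1 cells. With totals without mitochondrial and ribosomal genes the 1.2-fold counts were 132 and 64, and no scaling moved the median of all genes by over 0.1. The VCX family median was 0.995 with a pseudocount of 10 CPM and 0.78 with no minimum, and that of the mitosis list -0.024 with equal phase shares. The histone median was -0.059 with no minimum, -0.106 with equal phase shares and -0.048 in G1 cells, where the medians of cholesterol synthesis and melanocytic factors were 0.048 and -0.049; the cause was not tested. Relative to all genes, chromosomes 7 and 8 lay at -0.034 and 0.022 with no minimum. Shares of cells with a UMI at the deposited depth, in sets 3 and 4, were 86.0% and 54.9% for VCX3B, 96.9% and 91.5% for NUPR1, 17.8% and 7.03% for SLC7A11, 94.3% and 91.3% for APOD and 53.04% and 61.8% for MKI67. For named genes, 1395 of 1647 alternative ratios moved by less than counting error and 252 by more.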
